A study of Mus musculus with 1528 samples.

Results

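The regulators of transcription described here are 9 mouse genes linked to the response of macrophages to IL4: *Irf4*, *Klf4*, *Pparg*, *Myc*, *Egr2*, *Kdm6b*, *Cebpb*, *Bhlhe40* and *Batf3*. They were listed by name, with earlier results of these data known, and each was found as 1 row among the 55421 genes of a table of counts. All 9 were among the 17034 genes that passed the filter on low values and were tested.

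Bone marrow–derived macrophages (BMDMs) are grown from marrow in M-CSF. Cultures from 2 wild-type C57BL/6 mice received either IL4+IL13 alone or the same pair together with TNF (IL4+IL13+TNF), at 10 ng/ml per cytokine, and after 24 h live single cells were sorted into 4 plates for Smart-seq2. Plates 2 and 3 held mouse 1, plates 4 and 5 held mouse 2, and each plate held both treatments of its mouse in separate rows. No unstimulated cells were analysed here, so both groups carry IL4+IL13 and only the addition of TNF was compared. Once poor wells had been removed, mouse 1 had 357 cells without and 347 with TNF and mouse 2 had 333 and 349, with 200235 to 6122892 fragments per cell.

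IL4 and IL13 signal through the IL4 receptor alpha chain and the factor STAT6, which switches on the genes of alternative, or M2, activation together with a second layer of factors. IRF4, KLF4, PPARG, EGR2 and MYC belong to that layer, and KDM6B removes the repressive methyl marks from lysine 27 of histone H3. CEBPB is a bZIP factor of myeloid genes, BHLHE40 a basic helix-loop-helix factor, and BATF3 an AP-1 type factor best known from dendritic cells; TNF acts through NF-κB.

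Of the promoters, the 250 bases before the transcription start of *Klf4* and of *Egr2* are shown, since these had the lowest and the highest log2 fold change of the 9 genes and both hold the E-box CACGTG, the letters that MYC with its partner MAX and BHLHE40 are known to bind. The sequences are from RefSeq for GRCm38.p6, 5′ to 3′ on the strand of the gene. Capitals mark the E-box and, in *Klf4* only, CGCCCCCGC, which is GCGGGGGCG, the letters of an EGR site, on the other strand.
Klf4: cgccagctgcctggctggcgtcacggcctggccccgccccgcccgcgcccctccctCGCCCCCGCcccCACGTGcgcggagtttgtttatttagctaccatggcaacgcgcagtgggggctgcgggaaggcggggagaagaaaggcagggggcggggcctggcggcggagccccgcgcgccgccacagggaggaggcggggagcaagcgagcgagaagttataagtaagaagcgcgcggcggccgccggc
Egr2: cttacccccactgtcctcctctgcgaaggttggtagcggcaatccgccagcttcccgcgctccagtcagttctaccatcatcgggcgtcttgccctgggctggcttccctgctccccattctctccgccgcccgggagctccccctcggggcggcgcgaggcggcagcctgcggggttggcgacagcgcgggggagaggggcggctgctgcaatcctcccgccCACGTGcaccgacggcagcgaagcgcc
The *Klf4* window lies at chr4:55532476-55532725 on the minus strand and overlaps no annotated exon. The E-box starts 182 bases before the transcription start, and its EGR site starts 194 bases before it. The *Egr2* window lies at chr10:67535249-67535498 on the plus strand, before the first of 5 starts listed for the gene, and its last 24 bases are exon in the annotation of the count table. Its E-box starts 27 bases before the transcription start. The table of promoters held entries for *Irf4*, *Klf4*, *Pparg*, *Egr2*, *Cebpb* and *Batf3*, 6 of the 9 genes, and none for *Myc*, *Kdm6b* and *Bhlhe40*. CACGTG, which reads the same on both strands, was in the windows of *Klf4*, *Egr2* and *Batf3* and in 6.02% of all 32851 promoter windows of this length. GCGGGGGCG was in 2.57% of them on either strand. TTCNNNGAA, a STAT site, was in 7.02% of all windows and among these genes only in that of *Batf3*, and TTCNNNNGAA, the wider spacing that STAT6 prefers, was in 5.85% of all windows and in none of theirs. These are matches of letters, and binding was not measured.

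With TNF, *Klf4*, *Pparg* and *Irf4* had lower mean levels and *Egr2*, *Kdm6b*, *Bhlhe40* and *Cebpb* higher ones, each in the same direction on all 4 plates, while *Myc* and *Batf3* went both ways. None of the 9 genes passed the test between the treatments. Levels are CPM, the counts of a gene relative to all counts, of the fragments summed over the cells of 1 mouse and treatment, or of 1 plate and treatment, after TMM scaling. The treatments were compared with edgeR (quasi-likelihood), and p was adjusted over all 17034 genes by the Benjamini-Hochberg method, with a threshold of 0.05. With 2 mice per treatment, an exact two-sided permutation test of 1 gene cannot give a p below 0.333. Nothing says that cells of 1 mouse were cultured more than once per treatment, so the spread is that between 2 mice.

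The test called 0 of the 9 genes, against 0.00587% of all genes tested, which is 1 gene. Unadjusted p was under 0.05 for *Klf4*, *Pparg*, *Egr2* and *Bhlhe40*, 4 of the 9, against 8.10% of all genes. With the mouse as a block, which uses the pairing of the treatments within each mouse, 3.82% of all genes were called (331 higher and 320 lower with TNF) and again 0 of the 9, with 6 of the 9 at an unadjusted p under 0.05 against 21.4% of all genes. The adjusted p by edgeR with the block was 0.0763 for *Bhlhe40*, 0.0778 for *Pparg*, 0.0794 for *Klf4* and 0.151 for *Egr2*. For the others it ran from 0.184 (*Irf4*) to 0.930 (*Batf3*). The adjusted p given below for each regulator is that with treatment only, unless another is named. DESeq2 called 3.51% of all genes and 0 of the 9. By plate, 4 of the 9 were higher with TNF on all 4 plates, against 18.7% of all genes, and 3 of the 9 were lower on all 4, against 16.8%. For 3 of the 9 both mice with TNF lay above both without (18.6% of all genes), and for 2 both lay below (17.9%). Below it is also said where no plate with TNF overlapped any plate without it. The share of all genes that do so was not counted, so whether that is unusual is not known.

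**Figure D1:**
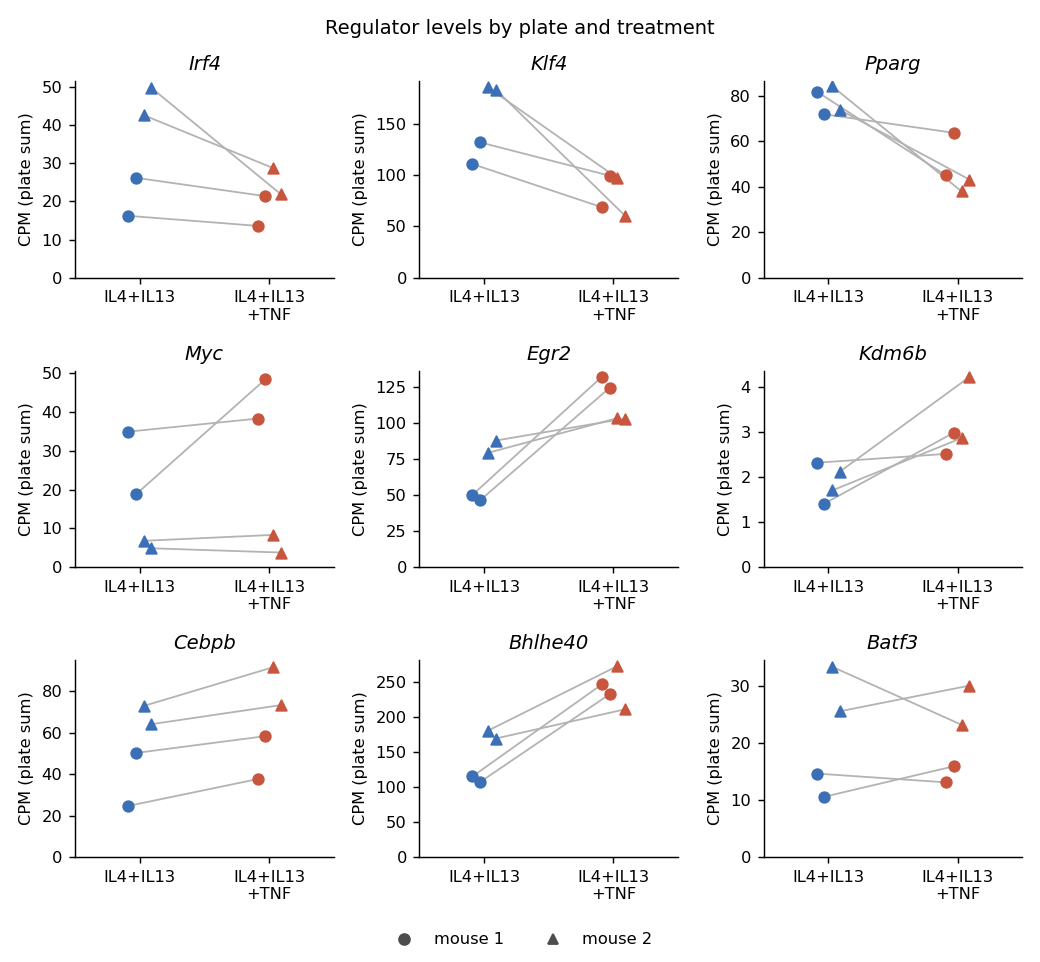
Levels of the 9 regulators by plate. Each panel gives CPM of the fragments summed over the cells of 1 plate and treatment (linear axis from 0), circles for the plates of mouse 1 and triangles for those of mouse 2, with a line joining the treatments of 1 plate. The lines of *Klf4*, *Pparg* and *Irf4* slope down on 4 of 4 plates and those of *Egr2*, *Kdm6b*, *Cebpb* and *Bhlhe40* slope up on 4 of 4, while the plates of mouse 1 lie above those of mouse 2 for *Myc*.

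*Klf4*, a zinc-finger factor that works with STAT6 on M2 genes, is on chromosome 4 at 55527143 to 55532466; gene positions are those of the count table, on mm10. It was at 111 and 132 CPM on the plates of mouse 1 and at 185 and 183 CPM on those of mouse 2 with IL4+IL13, and at 68.7 and 99.4 CPM and at 97.1 and 60.3 CPM with IL4+IL13+TNF. Every TNF value lay below every value without TNF. The mean over the mice was 153 ± 43.3 CPM (SD, n = 2) without and 82.3 ± 5.30 CPM with TNF, a log2 fold change of -0.89 (SE 0.25) with an adjusted p of 0.434 by edgeR. Over the alternatives the adjusted p ran from 0.0664 with DESeq2 to 0.940. Without mouse 2 of IL4+IL13 the log2 fold change was -0.57, and without any filter on cells -0.54.

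The share of cells with a *Klf4* fragment was 87.3% (95% Clopper-Pearson interval 83.3 to 90.7%) in mouse 1 and 93.2% (89.8 to 95.7%) in mouse 2 without TNF, and 87.1% (82.8 to 90.7%) and 78.8% (73.7 to 83.2%) with TNF. Shares were taken after each cell was thinned to 339000 fragments, and the intervals cover counting error only. Cells with fewer fragments were left out, 49 without and 87 with TNF. Without thinning the shares were 88.0% and 94.6% without TNF and 88.2% and 80.8% with it. In cells with a fragment, the median was 115 and 145 CPM without and 61.9 and 50.1 CPM with TNF. So in mouse 1 the level per positive cell was lower at about the same share, and in mouse 2 both were lower.

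*Pparg* encodes a lipid-sensing nuclear receptor. It lies on chromosome 6 at 115360951 to 115490399. Its level was 81.8 and 71.8 CPM on the plates of mouse 1 and 84.1 and 73.7 CPM on those of mouse 2 without TNF. With TNF it was 44.9 and 63.7 CPM in mouse 1 and 37.9 and 43.1 CPM in mouse 2, so the groups of plates did not overlap. The mean was 77.9 ± 1.22 CPM (SD, n = 2) without and 48.1 ± 10.6 CPM with TNF, a log2 fold change of -0.70 (SE 0.22) with an adjusted p of 0.506 by edgeR. Over the alternatives the adjusted p ran from 0.0778 to 1.00. The share of cells with a fragment was 73.8% and 67.6% without TNF and 64.4% and 56.5% with TNF in mouse 1 and mouse 2, lower by 10.3 ± 1.18 percentage points (SD over 2 mice).

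*Irf4*, a factor that IL4 induces and that also marks plasma cells and some dendritic cells, is on chromosome 13 at 30749226 to 30766976. It was at 21.4 and 45.7 CPM in mouse 1 and mouse 2 without TNF and at 17.98 and 25.3 CPM with TNF. Mouse 2 was above mouse 1 in both groups, and the groups overlapped. The log2 fold change was -0.63 (SE 0.42, adjusted p = 0.812 by edgeR), and without mouse 2 of IL4+IL13 it was 0.02. The share of cells was 29.8% and 43.7% without and 28.4% and 28.8% with TNF. The most strongly expressing 5% of cells held 52.7% to 65.6% of all *Irf4* signal in each mouse and treatment, whereas for *Klf4* they held 20.4% to 31.2%.

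*Egr2*, an early growth response factor on chromosome 10 at 67535475 to 67542188, had the highest log2 fold change of the 9. On the plates of mouse 1 it was at 50.2 and 46.5 CPM without and at 132 and 125 CPM with TNF. On those of mouse 2 it was at 79.5 and 88.0 CPM without and at 104 and 103 CPM with TNF. No plate with TNF was as low as the highest plate without it, and the plates of mouse 1 moved further than those of mouse 2. The mean was 65.8 ± 24.3 CPM (SD, n = 2) without and 116 ± 17.5 CPM with TNF, a log2 fold change of 0.82 (SE 0.31) with an adjusted p of 0.601 by edgeR, and 0.151 to 1.00 over the alternatives. Without mouse 1 of IL4+IL13 the log2 fold change was 0.48, and without mouse 2 of IL4+IL13 it was 1.26.

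*Egr2* also had the largest difference in the share of cells. A fragment was found in 51.5% (46.0 to 57.0%) and 53.4% (47.7 to 59.1%) of the cells of mouse 1 and mouse 2 without TNF, and in 76.2% (71.0 to 80.9%) and 70.6% (65.1 to 75.6%) with TNF, a difference of 20.96 ± 5.33 percentage points (SD over 2 mice). Without thinning the shares were 57.4% and 58.0% and, with TNF, 77.5% and 72.5%. The mean difference over the mice kept its sign without thinning for all 9 genes, but in mouse 1 that of *Irf4* went from -1.44 to 2.07 percentage points and that of *Klf4* from -0.22 to 0.23. Among cells with a fragment, the median was 53.1 and 79.6 CPM without and 112 and 95.9 CPM with TNF.

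*Bhlhe40*, on chromosome 6 at 108660629 to 108666925, was at 115 and 107 CPM on the plates of mouse 1 and at 181 and 169 CPM on those of mouse 2 without TNF. With TNF it was at 247 and 233 CPM in mouse 1 and at 273 and 211 CPM in mouse 2. The groups of plates did not overlap, and the mice, which differed 1.56-fold without TNF, were at 240 and 242 CPM with it. The log2 fold change was 0.75 (SE 0.25) with an adjusted p of 0.532 by edgeR, and 0.0763 to 1.00 over the alternatives. Without mouse 1 of IL4+IL13 it was 0.46. The share of cells went from 76.5% and 81.2% without TNF to 90.1% and 93.5% with it, a difference of 12.9 ± 0.961 percentage points (SD over 2 mice).

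*Cebpb*, a single-exon gene on chromosome 2 at 167688915 to 167690418, was at 37.9 and 68.4 CPM in mouse 1 and mouse 2 without TNF and at 49.3 and 82.4 CPM with TNF. It was higher with TNF on each plate, but mouse 2 without TNF was above mouse 1 with TNF, so the groups overlapped. The log2 fold change was 0.31 (SE 0.39, adjusted p = 0.930 by edgeR), and it was -0.06 without mouse 1 of IL4+IL13 and -0.11 without mouse 2 of IL4+IL13+TNF. Its share of cells was 74.7% and 85.4% without and 85.1% and 91.2% with TNF. *Tmem189* overlaps 312 of its 1504 exon bases on the other strand, and since the counting did not use the strand, reads of the genes are not told apart there.

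*Kdm6b*, the histone demethylase, on chromosome 11 at 69398508 to 69413675, was the least expressed of the 9, and *Kdm6bos* overlaps 286 of its 6954 exon bases. It was at 1.87 and 1.89 CPM without TNF and at 2.79 and 3.56 CPM with TNF, which is higher in both mice. The log2 fold change was 0.76 (SE 0.36, adjusted p = 0.693 by edgeR), and it was 0.34 when the mean CPM per cell was compared by limma. A fragment was found in 16.9% and 22.7% of cells without and in 22.1% and 25.2% with TNF, and 5 or more fragments in 1.20% and 2.59% without and in 6.60% and 5.88% with TNF.

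*Myc*, the growth factor–responsive regulator of ribosome and nucleotide synthesis, is on chromosome 15 at 61985391 to 61990374 and differed between the mice. Mouse 1 was at 26.8 CPM without and 44.1 CPM with TNF, and mouse 2 at 5.88 and 6.05 CPM, which is 4.56-fold and 7.29-fold less than mouse 1. A fragment was found in 40.4% (35.0 to 45.9%) and 58.1% (52.3 to 63.7%) of the cells of mouse 1 and in 12.6% (9.13 to 16.9%) and 15.4% (11.5 to 19.9%) of those of mouse 2. *Myc* was higher with TNF on plates 2, 3 and 4 and lower on plate 5. The log2 fold change of 0.62 had an SE of 1.09 (adjusted p = 0.953 by edgeR) and ran from -1.43 without mouse 1 of IL4+IL13+TNF to 2.09 without mouse 1 of IL4+IL13, and it was -0.09 without mouse 2 of IL4+IL13. Each mouse stands on its own plates, so mouse, plate and experiment cannot be told apart here.

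*Batf3*, on chromosome 1 at 191097847 to 191108945, was at 12.6 and 29.6 CPM without and at 14.7 and 26.7 CPM with TNF in mouse 1 and mouse 2. The log2 fold change was -0.02 (SE 0.51, adjusted p = 0.997 by edgeR). It was lower with TNF on plates 2 and 4 and higher on plates 3 and 5. Leaving out mouse 2 of IL4+IL13 gave 0.72 and leaving out mouse 2 of IL4+IL13+TNF gave -0.52. Its share of cells was 33.4% and 37.5% without and 37.6% and 42.8% with TNF, and the 4 intervals overlapped.

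**Figure D2:**
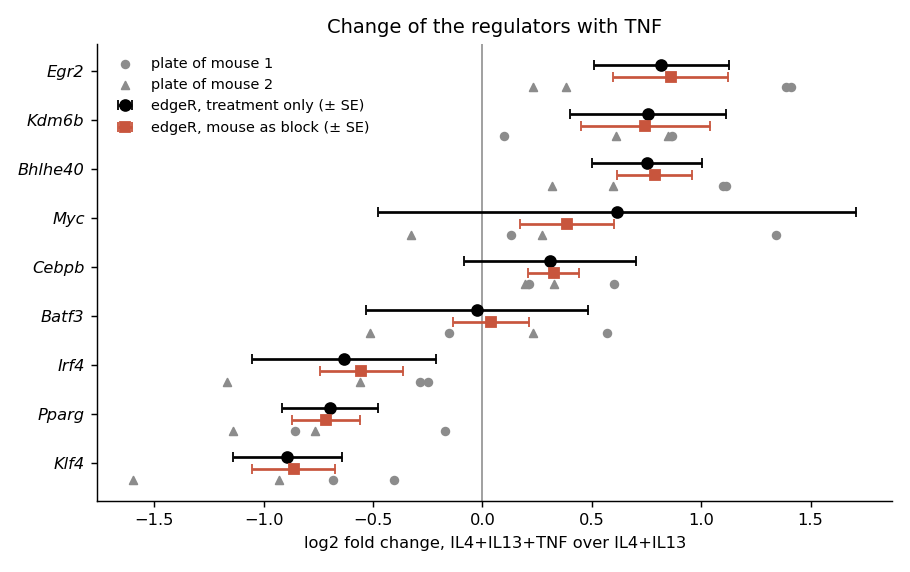
Log2 fold change of each regulator, IL4+IL13+TNF over IL4+IL13, in order of size. Black circles give edgeR with treatment only and red squares edgeR with the mouse as a block, both with SE; grey symbols give the ratio on each of the 4 plates (circles mouse 1, triangles mouse 2). *Klf4* lies lowest at -0.89 and *Egr2* highest at 0.82, and the SE of *Myc*, 1.09, is the widest.

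After thinning, shares of cells lay on the same side as the levels for the same 7 genes. With TNF the share was higher on all 4 plates for *Egr2*, *Bhlhe40*, *Cebpb* and *Kdm6b*, 4 of the 9, against 26.1% of all genes. It was lower on all 4 plates for *Pparg*, *Klf4* and *Irf4*, 3 of the 9, against 9.55% of all genes. Without thinning the first 4 genes were again higher on 4 of 4 plates, but of the other 3 only *Pparg* was lower on 4 of 4, since *Irf4* was higher with TNF on plates 2 and 3 and *Klf4* on plate 3. The margin was not even: on plate 2 the share of *Klf4* was 86.7% under both treatments, whereas that of *Pparg* was lower by 7.24 to 12.6 percentage points on every plate, both after thinning.

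**Figure D3:**
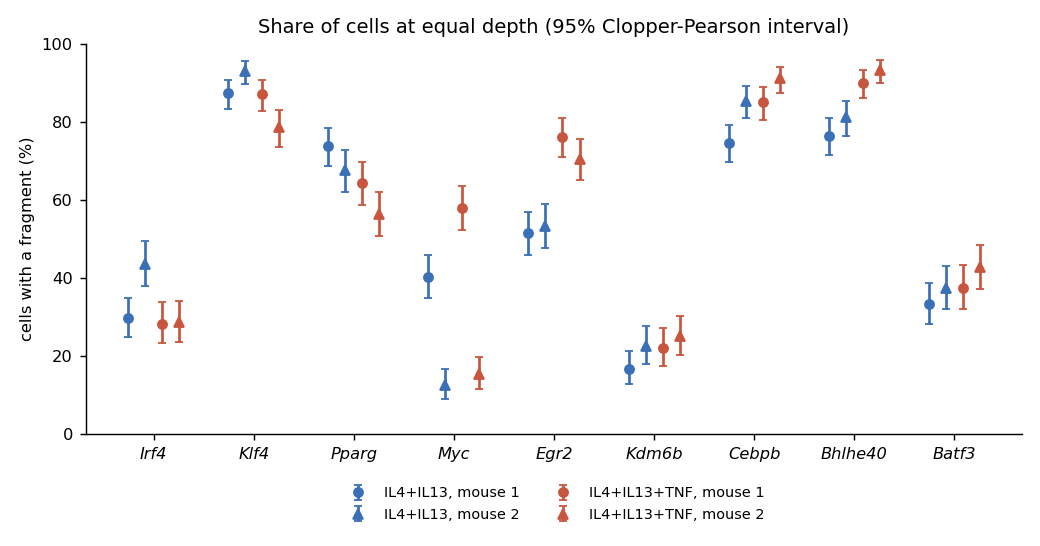
Percentage of cells in which each regulator had 1 fragment or more, after thinning to 339000 fragments, with 95% Clopper-Pearson intervals; circles are mouse 1 and triangles mouse 2, blue IL4+IL13 and red IL4+IL13+TNF. The intervals of *Egr2* and *Bhlhe40* with TNF lie above those without it in both mice, and *Myc* in mouse 2 stays under 20% in both treatments.

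Before thinning, the median cell had 83.4 and 130 CPM of *Klf4* in mouse 1 and mouse 2 without TNF and 51.7 and 26.9 CPM with it. For *Bhlhe40* the median was 43.4 and 82.4 CPM without and 192 and 154 CPM with TNF, and the 90th percentile was 372 and 482 CPM without and 499 and 578 CPM with it. The median cell had 2.04 and 2.02 CPM of *Egr2* without TNF, near the level of 1 fragment, and 59.8 and 26.3 CPM with TNF. Among the highest cells the mice differed for *Egr2*: its 90th percentile was 166 CPM without and 361 CPM with TNF in mouse 1, and 285 and 296 CPM in mouse 2, where it was 301 and 291 CPM after thinning.

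**Figure D4:**
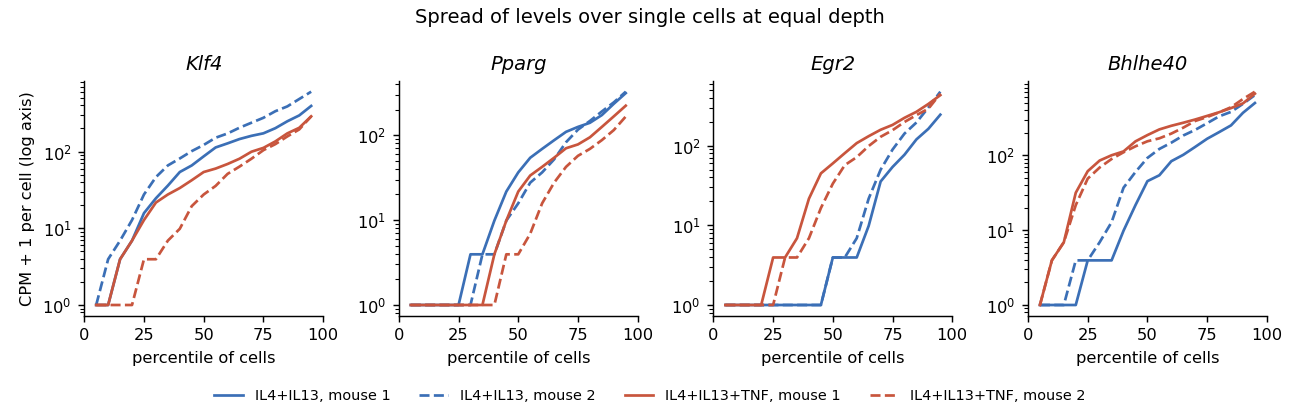
Level at each 5th percentile of cells for *Klf4*, *Pparg*, *Egr2* and *Bhlhe40* after thinning, as CPM + 1 on a log axis; blue is IL4+IL13 and red IL4+IL13+TNF, solid lines mouse 1 and dashed lines mouse 2. The red lines of *Egr2* and *Bhlhe40* leave 1 at lower percentiles than the blue ones, and those of *Klf4* and *Pparg* run below the blue ones over the upper part of the range.

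Per kilobase of exon, so that genes can be compared, *Klf4* had the highest level of the 9 with IL4+IL13 at 50.1 ± 14.2 CPM per kb (SD, n = 2). *Cebpb* (35.3 ± 14.3), *Bhlhe40* (30.4 ± 9.43), *Pparg* (26.4 ± 0.411), *Egr2* (19.4 ± 7.16), *Batf3* (13.2 ± 7.50), *Irf4* (6.85 ± 3.51), *Myc* (6.02 ± 5.45) and *Kdm6b* (0.270 ± 0.00280) followed, all in CPM per kb. Neighbours in this order overlapped between the mice, except *Pparg* above *Egr2* and *Myc* above *Kdm6b*. With IL4+IL13+TNF the order began with *Bhlhe40* at 51.2 ± 0.366, *Cebpb* at 43.8 ± 15.6 and *Egr2* at 34.1 ± 5.15 CPM per kb, followed by *Klf4* at 26.99 ± 1.74 CPM per kb, with no overlap with *Egr2* above it or *Pparg* below it (16.3 ± 3.57).

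The 6 M2 “signature” genes that the study lists were lower with TNF on all 4 plates in these cells; the list comes from the study of these samples, so its direction is not independent evidence. None passed edgeR's test with treatment only, and 5 of the 6 fell in the fit with the mouse as a block: *Retnla*, *Clec10a*, *Mrc1*, *Il10* and *Apoe* (adjusted p = 0.0350, 0.00771, 0.0289, 0.0228 and 0.00798). *Mgl2* did not (adjusted p = 0.117), in a fit that called 3.82% of all genes. The median log2 fold change of the 6 M2 genes was -1.60, against 0.00 over all genes tested and 0.31 over the 9 regulators. *Clec10a* and *Mgl2* encode neighbouring C-type lectins and *Mrc1* the mannose receptor.

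Across single cells, *Klf4* and *Irf4* went with the lectin genes and *Pparg*, *Egr2* and *Bhlhe40* against *Mrc1*. Spearman correlations were taken on thinned counts within each plate and treatment, which gives 8 sets of 128 to 175 cells, and averaged; cells of 1 set share a culture and a plate, so the values are a description with no test. *Klf4* correlated with *Clec10a* in 8 of 8 sets (mean 0.23, range 0.19 to 0.31) and with *Mgl2* in 8 of 8 (mean 0.17). *Irf4* correlated positively with *Mgl2* in 8 of 8 sets (mean 0.15) and with *Clec10a* in 7 of 8 (mean 0.14, range -0.09 to 0.29). With *Clec10a* the mean of *Irf4* was 0.23 over the sets without TNF and 0.05 over those with it, and this difference was not tested. Cells with an *Irf4* fragment had 1.47 times as much *Mgl2* as those without, and this ratio was over 1 in 8 of 8 sets.

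With *Mrc1*, *Pparg* had a mean of -0.18 and was negative in 8 of 8 sets, *Bhlhe40* -0.18 in 8 of 8 and *Egr2* -0.15 in 7 of 8, while *Cebpb* was positive in 8 of 8 (mean 0.15). *Klf4* had 0.12 with *Mrc1* and was positive in 6 of 8. *Myc* was negative with *Mrc1* in 8 of 8 sets (mean -0.09), and *Egr2* was negative in 8 of 8 with both *Clec10a* (-0.11) and *Mgl2* (-0.08). For *Retnla*, *Il10* and *Apoe*, mean correlations with the 9 genes lay between -0.07 and 0.07, and *Il10* was found in 3.27% to 12.3% of cells. Cells with a *Klf4* fragment had 10.4 times as much *Retnla* as those without (geometric mean). The ratio was over 1 in all 6 sets that gave one (2.15 to 74.7), while the correlation was positive in 7 of 8 sets at a mean of 0.05. The most strongly expressing 5% of cells held 64.3% to 99.3% of all *Retnla* signal in each mouse and treatment, so such ratios rest on few cells. For *Irf4* the ratio of *Retnla* ran from 0.00669 to 70.0 over 8 sets. The number of genes detected in a cell, held constant by a partial correlation, moved none of the 54 correlations with M2 genes by more than 0.0154.

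**Figure D5:**
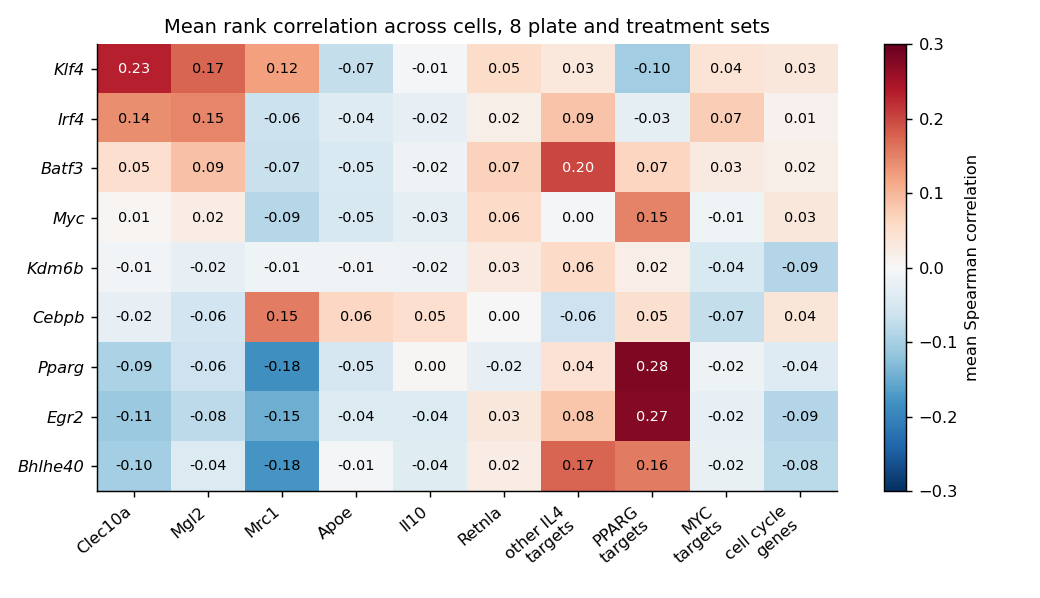
Mean Spearman correlation across cells of each regulator (rows) with the 6 M2 genes and with the summed counts of 4 gene lists (columns), averaged over 8 sets of 1 plate and treatment; the colour scale runs from -0.3 to 0.3. *Klf4* and *Irf4* are positive with *Clec10a* and *Mgl2*, and *Pparg* and *Egr2* have their highest values, 0.28 and 0.27, with the PPARG targets.

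With the summed counts of 8 textbook PPARG targets, among them *Fabp4*, *Cd36* and *Lpl* of lipid uptake, *Pparg* correlated at 0.28 and *Egr2* at 0.27, both in 8 of 8 sets. *Myc* had 0.15 with them, also in 8 of 8, and 0.17 with *Lpl* alone. Such sums add counts, so abundant genes weigh most: without TNF *Lpl* was at a mean of 1934 CPM, *Cd36* at 729 CPM and *Fabp4* at 173 CPM. *Myc* itself had -0.01 with the sum of 10 MYC targets and 0.03 with that of 7 cell cycle genes. With the other textbook IL4 targets, such as *Arg1*, *Ccl22* and *Pdcd1lg2*, *Batf3* (0.20) and *Bhlhe40* (0.17) were positive in 8 of 8 sets.

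Among the 36 pairs of regulators the median correlation was 0.06 and the highest was *Egr2* with *Bhlhe40* (0.27, 8 of 8 sets). *Pparg* was positive with both *Egr2* (0.19) and *Bhlhe40* (0.17) in 8 of 8 sets, although its level was lower with TNF and theirs higher. *Irf4* and *Batf3* had 0.18 in 8 of 8 sets, and the lowest pair was *Irf4* with *Cebpb* (-0.11, negative in 8 of 8).

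The genes most like each regulator across cells were taken from 11009 genes found in at least 20% of cells. *Pparg*, *Egr2* and *Bhlhe40* shared *Anxa1*, the gene of annexin A1, with means of 0.33, 0.35 and 0.35. *Atp6v0d2*, a subunit of the vacuolar proton pump, was among the first 3 of both *Pparg* (0.31) and *Bhlhe40* (0.36), and *Clec7a*, the gene of Dectin-1, among those of *Egr2* (0.31) and *Bhlhe40* (0.33). *Il7r* (0.28) completed the list of *Pparg* and *Csf2rb* (0.31) that of *Egr2*. *Cd74*, the invariant chain of MHC class II, was like *Batf3* (0.26) and *Irf4* (0.21). *Batf3* further had *Rnase2a* (0.23) and the class II gene *H2-DMa* (0.23), and *Irf4* had *Selplg* (0.22) and *Socs1* (0.20). *Cebpb* went with *Vat1* (0.31), *Ybx1* (0.30) and *mt-Rnr1* (0.29). For *Myc* the values reached 0.17 (*Lpl*, *Plaur*) and for *Kdm6b* 0.11 (*Gm11191*, *Efcab1*, *Bmi1*). The 99th percentile of all 11009 genes was 0.07 for *Kdm6b* and 0.15 for *Cebpb*, the lowest and highest of the 9 regulators.

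The gene most like *Klf4* was *Gm48640* (0.49), before *Clec10a* (0.23) and *Fos* (0.20). *Gm48640* is a processed pseudogene on another chromosome whose 226-base transcript matched bases 1795 to 2036 of the *Klf4* transcript at 91.3% identity over the 242 aligned positions. Its counts were 0.896% to 1.17% of those of *Klf4* in each mouse and treatment. Only uniquely mapped fragments were counted, and whether some *Klf4* fragments were assigned to *Gm48640* was not tested. The value of *Gm48640* and its rank as the gene most like *Klf4* are therefore uncertain.

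Relatives and partners of the 9 proteins were taken from 9 lists of 43 genes in all, of which 41 were tested. None passed edgeR's test with treatment only. With the mouse as a block 1 rose, 3 fell and 37 did not pass, in a fit that called 3.82% of all genes. The median log2 fold change of the 41 was -0.12, against 0.00 over all genes. *Nr1h3*, the gene of the nuclear receptor LXRα that pairs with RXR as PPARG does, rose from 12.7 to 34.3 CPM (log2 fold change 1.44, adjusted p = 0.0159 with the block). *Cebpa*, the relative of *Cebpb*, fell from 59.2 to 32.8 CPM (-0.85, adjusted p = 0.0292 with the block). *Klf3* fell from 83.6 to 46.8 CPM (-0.84, adjusted p = 0.0276 with the block) and *Mxd4*, whose protein competes with MYC for MAX, from 53.8 to 30.9 CPM (-0.80, adjusted p = 0.0350 with the block).

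Of the textbook targets, none of the 7 tested PPARG targets and none of the 10 MYC targets passed in either edgeR fit; their median log2 fold changes were -0.26 and 0.34. Of 10 genes of the IL4 receptor, its kinases, STAT6 and feedback inhibitors, *Il2rg*, the common gamma chain, rose with the block (120 to 325 CPM, log2 fold change 1.44, adjusted p = 0.00798), and the other 9 did not pass. Of 11 tested other IL4 targets, 5 rose with the block and 6 did not pass, in a fit that called 3.82% of all genes. The 5 were *Ccl17*, *Ccl22*, *Ccl24*, *Pdcd1lg2*, which encodes PD-L2, and *Cish*, with log2 fold changes of 1.96 to 7.93. The chemokine genes *Ccl17* and *Ccl22* differed between the mice with TNF: *Ccl17* was at 3.03 CPM in mouse 1 and 72.5 CPM in mouse 2, and *Ccl22* at 45.7 and 379 CPM. On the log2(CPM + 0.5) scale their differences within the mice were 2.52 and 6.55 for *Ccl17* and 4.88 and 8.35 for *Ccl22*.

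The cells carried macrophage markers, though not all alike. Of 7 listed genes, *Mertk* was found in 15.8% to 37.5% of cells, *Fcgr1* in 24.4% to 57.9% and the others in at least 92.5%. The summed mean CPM of the 7 was 15037 and 16900 without and 26172 and 25792 with TNF, of which *Lyz2* took the most. With the block, *Lyz2* rose and *Fcgr1* and *Mertk* fell. Of 10 NF-κB targets 9 rose with the block, in a fit that called 3.82% of all genes. Of 7 cell cycle genes 4 fell with the block (*Mki67*, *Top2a*, *Cdk1* and *Ccnb1*). The summed mean CPM of all 7 was 904 and 518 without and 520 and 354 with TNF in mouse 1 and mouse 2. The part of cycling cells in the values of the regulators was not tested. Among 6 dendritic markers *Flt3* was found in 86.9% to 88.6% of cells at 6.84 to 7.35 CPM, and *Xcr1* in at most 1.32%. *Zbtb46* was at 0.325 and 3.01 CPM in mouse 1 and mouse 2 without and at 1.45 and 6.72 CPM with TNF, higher on 4 of 4 plates (adjusted p = 0.891 by edgeR, 0.0820 with the block). *Cd209a* was at 1.31 and 1.42 CPM without and at 0.00644 and 0.274 CPM with TNF, lower on 3 of 4 plates (adjusted p = 0.635, and 0.119 with the block), and the part of dendritic cells in the values of *Irf4* and *Batf3* was not tested. *S100a8*, a neutrophil gene, was in 1.20% to 31.0% of cells at no more than 4.54 CPM, and *Ly6g* in at most 0.971%. Genes of fibroblasts summed to at most 1.31 CPM and those of liver, islet, skin and heart to at most 0.163 CPM.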

How the data were processed

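Single BMDMs were profiled by Smart-seq2, which carries no molecular identifiers, so PCR copies are counted and intervals cover counting error only. The authors deposited raw counts of uniquely mapped fragments per gene and well, made with gsnap on mm10 and featureCounts 1.6.3 on Ensembl 98 without strand, per the paper and the file headers. Groups, mice and plates came from the labels; 1524 wells were assigned, and 4 samples that name no mouse were left out of comparisons. 92 spike-in rows and 8 columns that match no label were not used.

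Wells more than 3 median absolute deviations low in total or detected genes, or high in mitochondrial or spike-in share, within a plate were removed, which kept 1386. Counts were summed per mouse and treatment (162260282 to 179757666 fragments) and tested with edgeR 4.0.16 (TMM, treatment only, adjusted p threshold 0.05). Genes tested were in at least 5% of cells of either treatment and also passed edgeR's filterByExpr filter on the sums. The script was tested on simulated counts. Plate ratios use CPM + 0.5. The alternatives were the mouse as a block, DESeq2 1.42.0, library size, no gene filter, limma 3.58.1 on log2(CPM + 1), 2 other cell filters and each sum left out; a lone sum then takes its spread from the other treatment. The number in the titles was taken as the mouse, since the series names 2 mice, though no label ties a number to an animal. Same-number sums deviated together from the group means (r = 0.581 over 17034 genes). Such sums also share their plates, so this value cannot tell mouse from plate or experiment. Thinning to 339000 fragments left 1250 cells. Promoters were searched over the 250 bases before the start. Named genes are the 9 regulators, the 6 M2 genes, genes of each list past the threshold with or without the block (plus up to 2 moved most on all plates) and the 3 genes most like each regulator; *Fabp4*, *Cd36*, *Lpl* and *Arg1* as examples of lists and the markers *Flt3*, *Xcr1*, *Cd209a*, *S100a8* and *Ly6g* were chosen after their values were seen. The members, lists and tests were chosen with earlier results of these data known.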

Additional observations from a re-analysis of the deposited data

Results flagged for a closer look

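In 3 wells labelled as IL4+IL13 without a mouse number, on plates 3, 4 and 5 and with 279461, 354874 and 87198 fragments, 3 of the regulators were above the mean level per cell of every mouse and treatment. *Cebpb* was at 483 to 803 CPM there, against a highest group mean of 83.7 CPM. *Bhlhe40* was at 415 to 539 CPM against 241 CPM, and *Egr2* at 138 to 147 CPM against 128 CPM. *Klf4* went the other way, at 56.4 to 68.8 CPM against a lowest group mean of 77.2 CPM. The wells had 10802, 11121 and 8314 detected genes, against a median of 7851 over all kept cells. What sets them apart was not tested. These wells entered no comparison, and 3 wells are not replicates of a group.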

How the results depend on the processing

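None of the 9 regulators passed the threshold under any of the 11 alternatives. The count of all genes higher and lower with TNF was 1 and 0, and it was 331 and 320 with the mouse as a replicate block and 305 and 293 with DESeq2. Leaving out 1 sum at a time gave 3 to 29 genes higher, the most without mouse 1 of IL4+IL13+TNF, and 0 to 1 lower. Over these 4 fits the log2 fold change ran from -1.09 to 0.017 for *Irf4*, from -1.43 to 2.09 for *Myc*, from -0.11 to 0.80 for *Cebpb* and from -0.52 to 0.72 for *Batf3*, whose value was also 0.037 with the replicate block; that fit changed no other sign and no call of the 9. *Klf4*, *Pparg*, *Egr2*, *Kdm6b* and *Bhlhe40* kept their sign in all 11. Library size in place of TMM shifted the median of all genes to -0.09 on the log2 scale, and the cause of the other changes was not tested. All 9 differences in share, as means over the mice, kept their sign under 6 alternatives. The largest shift of such a mean was 8.26 percentage points, for *Bhlhe40* with at least 5 fragments. In mouse 1 alone, however, the difference of *Irf4* ran from -1.44 to 5.14 percentage points. Depth limits *Kdm6b* most, with 1715 fragments in all kept cells, so that a cell without a fragment need not lack the transcript.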
